A study of Rattus norvegicus with 12 samples.

Results

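Entorhino-hippocampal slice co-cultures whose connecting axons had been cut 1 day earlier were compared with uncut co-cultures. The members are the 4 arrays of that day, chosen by their titles, of 12 arrays in the series. They hold 2 of the 6 biological replicates. On each array, RNA of axotomized co-cultures in one dye was hybridized against RNA of non-axotomized co-cultures of the same day in the other dye. Arrays 1 and 3 belong to replicate 1 and arrays 2 and 4 to replicate 2. The axotomized RNA was labelled with Cy5 on arrays 1 and 2 and with Cy3 on arrays 3 and 4. Axotomy was performed after 15 days in vitro with a tungsten knife, and both groups were kept in a serum-containing medium. The labels give the species as Rattus norvegicus, while their treatment protocol speaks of wild type mice, and the sources used here do not settle this. No sex or age of the donor animals is given in the sources used here. Nor is it given what makes up a biological replicate (a culture, an animal or pooled material). The p-values measure a spread pooled over the 6 replicates of days 1, 3 and 7, not of day 1 alone, and that spread may be technical. A series-wide question was which transcripts are regulated at 1, 3 and 7 days after the cut.

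The entorhino-hippocampal pathway, also called the perforant pathway, carries the main cortical input to the dentate gyrus and hippocampus. When its axons are severed, the cut fibres degenerate, and in the denervated layers microglia and astrocytes react and divide while neurons adjust their synapses. The cut also injures tissue directly along its path. Its part in the values below, beside that of the lost input, was not tested.

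Each value is a log2 ratio, cut over uncut co-cultures, averaged over a gene's spots. The array titles and the channel order make this direction likely, but no source used here states it, and every sign turns if the table runs the other way. Means are given with the SD of the 2 replicates, each the average of its dye-swapped arrays. The table holds no intensities, so neither the level of a gene nor the tissue's defining markers could be checked. In bulk RNA, a change in the number of cells of a type and a change in RNA per cell cannot be told apart. The 2 averaged replicates correlated at a Pearson's r of 0.475 across the 14871 genes, and genes are not independent replicates. It was 0.328 between the dye-swapped arrays of replicate 1, and -0.080 between those of replicate 2. The arrays that share a dye orientation correlated at 0.578 (Cy5) and 0.429 (Cy3). Of the 14871 genes, 56.4% had a mean above 0, 11.1% lay above 0 and 7.56% below 0 on all 4 arrays, and the median ratio was 0.0098.

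One day after axotomy, transcripts of dividing cells were higher, and those of the integrated stress response, of cholesterol synthesis and of some chemokines were lower. In limma's test with Benjamini-Hochberg adjustment, 88 of 14871 genes passed an adjusted p under 0.05, which is 0.592% of them. Of these, 55 rose (0.37%) and 33 fell (0.222%). Without adjustment, 1968 genes had p under 0.05. All 88 had 1 sign on all 4 arrays, which the choice of these genes from the same arrays favours. The increases ran from 0.26 to 1.08 with a median of 0.43, and the decreases from 0.30 to 1.83 below 0 with a median of -0.61. The ratios were larger with the axotomized RNA in Cy5: among the genes that rose the median was 0.57 on those arrays and 0.36 with it in Cy3, and among those that fell -0.72 and -0.51. Of 46 gene lists, 20 held a gene past the threshold, and these lists took in 27 of the 55 genes that rose and 24 of the 33 that fell. The 46 lists hold 1096 of the 14871 genes. They were chosen with earlier results of these data known, which favours the share of called genes in them here and below. The number of calls depends on the replicates in the fit: leaving out day 1 replicate 1 gave 8 genes, 1 of them among the 88, and leaving out day 1 replicate 2 gave 3, with 0 among the 88. Leaving out either replicate of day 3 gave 0, and leaving out either of day 7 gave 36, with 27 among the 88.

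**Figure D1:**
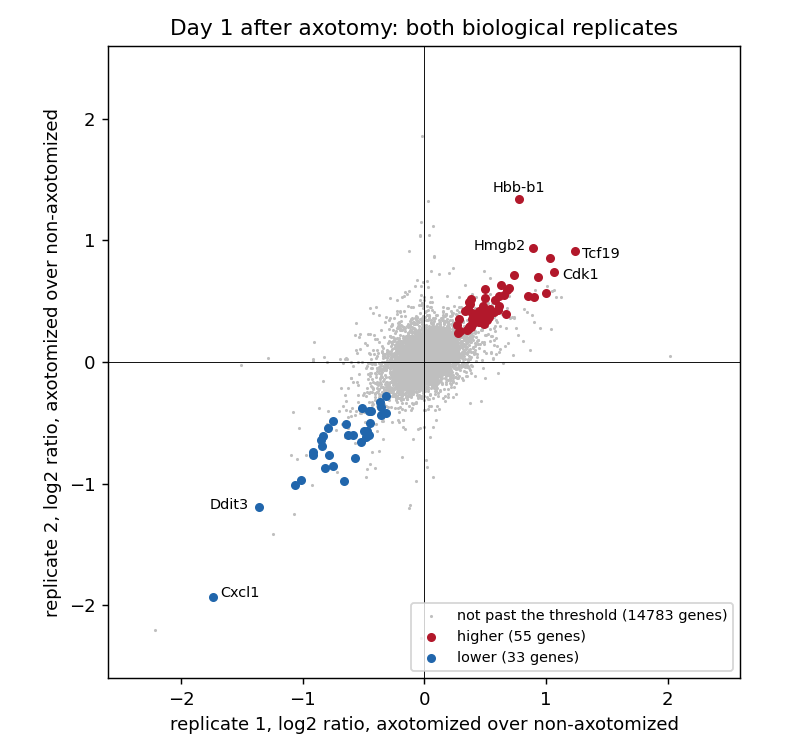
Each point is 1 of 14871 genes, with the log2 ratio of replicate 1 on the horizontal axis and of replicate 2 on the vertical axis; red points mark the 55 genes that rose and blue points the 33 that fell. The coloured points lie along the diagonal, from Cxcl1 at the lower left to Tcf19 at the upper right, and Hbb-b1 lies above it.

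Mitosis and the spindle had the highest median of the 46 lists. All 39 measured members lay above 0 (56.4% of all genes did), 34 of them on all 4 arrays (11.1% of all genes did), and 18 rose, while 0 fell. This is 46.2% of the list, against 0.37% of all genes. Without adjustment 33 of the 39 had p under 0.05 and a higher value, against 7.81% of all genes. The list's median was 0.36, with 0.44, 0.29, 0.39 and 0.25 on arrays 1 to 4, against 0.0098 for all genes. All 4 arrays show it, with higher medians in replicate 1 (0.45) than in replicate 2 (0.29).

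Entry into mitosis is driven by cyclin-dependent kinase 1 and its cyclins. Cdk1, the kinase itself, had 1.07, 0.84, 1.07 and 0.64 on arrays 1 to 4 and rose by 0.91 ± 0.23, or 1.87-fold (adjusted p = 0.0316). Its partner genes Ccna2 (cyclin A2) and Ccnb1 (cyclin B1) rose by 0.53 ± 0.19 and 0.39 ± 0.089. Plk1, the polo-like kinase of mitotic entry, had 0.39, 0.52, 0.61 and 0.54 on the 4 arrays and rose by 0.51 ± 0.021 (adjusted p = 0.0281). Foxm1, the transcription factor that activates many late cell cycle genes, rose by 0.40 ± 0.13, and Melk, a kinase gene of proliferating cells, by 0.78 ± 0.31. In Cdk1 and Melk replicate 1 was the higher, and in Plk1 the replicates were nearly equal.

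Genes of the kinetochore and spindle followed. Nuf2, a subunit of the kinetochore complex that binds microtubules, had 0.73, 0.76, 0.64 and 0.43 and rose by 0.64 ± 0.063 (adjusted p = 0.0143). Ndc80, its partner subunit, rose by 0.43 ± 0.024. Spc25, a further subunit of that complex, had 0.55 ± 0.25 and did not pass (adjusted p = 0.0704). Ckap2, a spindle-associated protein gene, had 1.06, 1.17, 0.41 and 0.27 and rose by 0.73 ± 0.014, or 1.65-fold (adjusted p = 0.0143). Its Cy5 arrays stand far above its Cy3 arrays, although the 2 replicates differ by little. Tpx2, which nucleates spindle microtubules, rose by 0.36 ± 0.060, Kif20a and Racgap1, which act in cytokinesis, by 0.54 ± 0.11 and 0.33 ± 0.057, and Bub1b, of the spindle checkpoint, by 0.32 ± 0.062. The 4 Racgap1 spots ran from 0.11 to 0.73 and the 3 Bub1b spots from 0.016 to 0.60. Cenpu, a centromere protein gene, rose by 0.72 ± 0.26, Cdca3 by 0.65 ± 0.060 and Pttg1, the securin gene, by 0.63 ± 0.0012. Top2a, the topoisomerase that untangles chromosomes, had 0.66, 0.56, 0.50 and 0.46 and rose by 0.55 ± 0.049 (adjusted p = 0.0171). Mki67, the proliferation marker, had 0.29, 0.46, 0.38 and 0.37 and rose by 0.37 ± 0.060 (adjusted p = 0.0281). Mki67 was at the same height in both dye orientations. Ccnb2, Cenpa and Ube2c had 0.38, 0.26 and 0.32 and did not pass, with adjusted p between 0.0704 and 0.0926. Birc5, the survivin gene, named after its values were seen, had 1.32, 0.66, 0.84 and 0.42, with an SD of 0.39, and did not pass (adjusted p = 0.0991).

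The promoters of 3 of these genes are shown because late cell cycle promoters are known to carry CCAAT boxes, bound by the factor NF-Y, and cell cycle homology regions. The sequences are the 250 bases before the RefSeq start in GRCr8, 5′ to 3′ on the gene's strand. Capitals mark CCAAT and TTTGAA or TTTAAA on either strand, so that ATTGG is CCAAT and TTCAAA is TTTGAA on the other strand.
Ckap2 chr16:76541864-76542113, plus strand: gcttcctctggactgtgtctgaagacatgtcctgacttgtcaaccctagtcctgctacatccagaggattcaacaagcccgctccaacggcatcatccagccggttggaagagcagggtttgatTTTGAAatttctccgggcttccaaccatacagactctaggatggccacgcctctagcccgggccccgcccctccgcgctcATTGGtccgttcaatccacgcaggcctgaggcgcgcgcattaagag
Top2a chr10:84473094-84473343, minus strand: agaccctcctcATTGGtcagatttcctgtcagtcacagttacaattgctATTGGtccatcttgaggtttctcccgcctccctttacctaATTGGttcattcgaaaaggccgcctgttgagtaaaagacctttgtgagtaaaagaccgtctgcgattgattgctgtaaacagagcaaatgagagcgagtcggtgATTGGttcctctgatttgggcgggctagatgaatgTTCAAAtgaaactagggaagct
Plk1 chr1:186147408-186147657, plus strand: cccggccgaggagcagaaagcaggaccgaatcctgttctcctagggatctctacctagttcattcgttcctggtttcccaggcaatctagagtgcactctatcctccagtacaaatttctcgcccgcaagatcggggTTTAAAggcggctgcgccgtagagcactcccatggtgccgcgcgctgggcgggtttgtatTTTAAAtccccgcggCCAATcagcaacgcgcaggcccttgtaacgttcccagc
Of the 39 genes of mitosis and the spindle, 32 have a promoter in the RefSeq table. CCAAT was found in 23 of the 32 (71.9%), against 35.2% of all 12254 promoters. TTTGAA was found in 15 (46.9%, against 13.5%) and TTTAAA in 10 (31.2%, against 10.4%). Of the 14 members with a promoter that rose, 9 held CCAAT, 5 TTTGAA and 3 TTTAAA. Top2a holds CCAAT 4 times in this stretch, and in Plk1 the box lies close to a TTTAAA. A match of letters is not a bound site.

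Of 32 measured DNA replication genes, 31 lay above 0 (56.4% of all genes did), with a median of 0.19. In this list 2 rose (6.25%, against 0.37% of all genes). Tcf19, a factor gene expressed from late G1 into S phase, had 1.24, 0.94, 1.23 and 0.89 and rose by 1.08 ± 0.23, or 2.11-fold (adjusted p = 0.0246). It had the highest ratio of all 14871 genes. Chaf1b, a subunit of the complex that loads histones on new DNA, rose by 0.70 ± 0.22 (adjusted p = 0.0393). Lig1, the replicative ligase gene, had 0.62 ± 0.11 (adjusted p = 0.0591), Pcna, the sliding clamp gene, 0.47 ± 0.14 (adjusted p = 0.0704), Cdc45 0.29 and Rrm2 0.29, and these 4 did not pass. Among 18 genes of high mobility group proteins and histone chromatin, 16 lay above 0 and Hmgb2 alone rose (5.56%). Hmgb2, a chromatin protein abundant in dividing cells, had 1.14, 1.05, 0.65 and 0.83 and rose by 0.92 ± 0.033 (adjusted p = 0.0143). Of 24 genes of G1 cyclins and cell cycle inhibitors 0 passed, with 14 above 0 and a median of 0.018. Myc, the growth-promoting factor gene, which this list holds, lay at -1.14, -1.19, -0.71 and -0.83 and did not pass (adjusted p = 0.073). E2f1 and Ccne1, which act at the start of S phase, had 0.26 and 0.24 and did not pass.

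The promoters of Tcf19 and of Tyms, the thymidylate synthase gene, are shown for the E2F site, TTTNGCGC on either strand, in capitals. Tyms lay at 0.30 ± 0.077 and did not pass.
Tcf19 chr20:3223214-3223463, plus strand: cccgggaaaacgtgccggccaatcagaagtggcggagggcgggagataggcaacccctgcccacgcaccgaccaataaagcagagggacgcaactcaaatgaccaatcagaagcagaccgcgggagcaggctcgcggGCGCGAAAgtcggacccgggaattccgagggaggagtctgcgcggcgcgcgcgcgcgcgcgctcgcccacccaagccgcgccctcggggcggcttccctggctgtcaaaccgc
Tyms chr9:120776084-120776333, minus strand: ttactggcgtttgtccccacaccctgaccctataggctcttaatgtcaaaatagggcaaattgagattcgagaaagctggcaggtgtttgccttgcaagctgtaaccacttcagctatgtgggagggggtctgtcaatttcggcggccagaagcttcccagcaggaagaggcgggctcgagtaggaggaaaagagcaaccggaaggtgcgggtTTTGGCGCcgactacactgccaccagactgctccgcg
E2F sites of these letters were found in 7 of 28 DNA replication promoters (25%), against 1.51% of all promoters. Of the 2 members that rose, Tcf19 held one and Chaf1b did not.

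**Figure D2:**
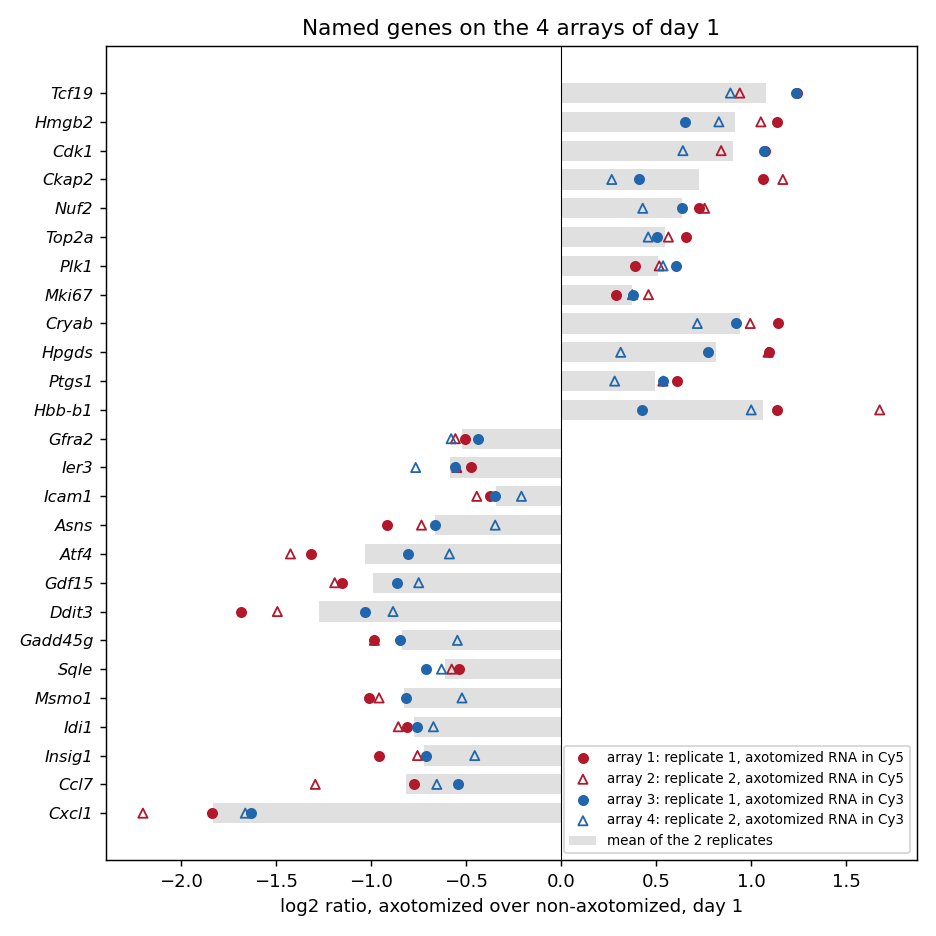
The log2 ratio of 26 genes past the threshold is plotted on each of the 4 arrays, with circles for replicate 1, triangles for replicate 2, red for axotomized RNA in Cy5 and blue for Cy3; grey bars start at 0 and end at the mean of the 2 replicates. No gene has a point on the other side of 0, and in Ckap2, Ddit3 and Atf4 the red points lie farther from 0 than the blue ones.

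The integrated stress response had the lowest median of the 46 lists. In this pathway kinases phosphorylate the translation factor eIF2 when amino acids run short or proteins misfold, general translation slows, and translation of Atf4 rises. Atf4 then activates genes of amino acid supply and, with Ddit3, of cell death. Of 28 measured members 6 fell (21.4%, against 0.222% of all genes) and 0 rose. Below 0 lay 25 of the 28, against 6481 of all 14871 genes, and 17 did so on all 4 arrays, as did 7.56% of all genes. Without adjustment 20 of 28 had p under 0.05 and a lower value, against 5.42% of all genes. The median was -0.36, with -0.46, -0.43, -0.38 and -0.24 on arrays 1 to 4.

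Atf4 lay at -1.32, -1.43, -0.81 and -0.59 and fell by 1.04 ± 0.040, or 2.05-fold (adjusted p = 0.0202). Ddit3, which encodes the pro-apoptotic factor CHOP, lay at -1.69, -1.49, -1.04 and -0.89 and fell by 1.28 ± 0.12, or 2.42-fold (adjusted p = 0.0143). Atf5, a related factor gene, fell by 0.58 ± 0.097, with its 2 spots at -0.94 and -0.21. In all 3 genes the Cy5 arrays lay farther below 0 than the Cy3 arrays. Among targets, Gdf15, a secreted stress factor gene, lay at -1.16, -1.19, -0.86 and -0.75 and fell by 0.99 ± 0.027 (adjusted p = 0.021). Asns, the asparagine synthetase gene, lay at -0.92, -0.74, -0.67 and -0.35 and fell by 0.67 ± 0.18 (adjusted p = 0.0292). Gadd45g, a growth arrest gene, lay at -0.99, -0.98, -0.85 and -0.55 and fell by 0.84 ± 0.11 (adjusted p = 0.0316).

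Several members with large ratios did not pass. Trib3, a pseudokinase gene induced by Atf4 and Ddit3 and named here after its values were seen, lay at -2.29, -2.52, -2.14 and -1.89. Its mean of -2.21 was the lowest of all 14871 genes, with replicates 0.0069 apart in SD, yet its adjusted p was 0.0727. The shared estimate of spread takes in day 7, where its replicates lay at -0.68 and 0.97. With either replicate of day 7 left out its adjusted p was 0.000538, and over all alternatives it ran from 0.00022 to 0.48. Atf3 lay at -1.17, -1.61, -1.32 and -1.22 (adjusted p = 0.0654). Chac1, a glutathione-degrading enzyme gene and Atf4 target also named after its values were seen, had -0.54 ± 0.12 (adjusted p = 0.0654). Its 2 spots lay at -1.05 and -0.037. Vegfa, Ppp1r15a and Herpud1 had -0.39, -0.35 and -0.33, with adjusted p from 0.0518 to 0.057. The 3 Herpud1 spots ran from -0.66 to 0.019. Ppp1r15a encodes the phosphatase subunit that ends the response.

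The promoters of Gadd45g, Herpud1 and Chac1 are shown for the composite element of C/EBP and ATF factors, searched as TGATGNAA on both strands and set in capitals.
Gadd45g chr17:13530352-13530601, minus strand: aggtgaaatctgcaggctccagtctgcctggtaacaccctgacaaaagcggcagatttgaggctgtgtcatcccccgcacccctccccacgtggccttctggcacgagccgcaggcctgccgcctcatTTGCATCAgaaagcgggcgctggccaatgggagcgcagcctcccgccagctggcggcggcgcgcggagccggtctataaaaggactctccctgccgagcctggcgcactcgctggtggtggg
Herpud1 chr19:10614708-10614957, minus strand: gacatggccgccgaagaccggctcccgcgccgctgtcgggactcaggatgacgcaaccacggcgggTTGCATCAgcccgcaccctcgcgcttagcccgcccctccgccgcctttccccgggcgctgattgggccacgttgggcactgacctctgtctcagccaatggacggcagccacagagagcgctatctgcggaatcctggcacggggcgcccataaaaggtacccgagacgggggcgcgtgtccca
Chac1 chr3:126795881-126796130, plus strand: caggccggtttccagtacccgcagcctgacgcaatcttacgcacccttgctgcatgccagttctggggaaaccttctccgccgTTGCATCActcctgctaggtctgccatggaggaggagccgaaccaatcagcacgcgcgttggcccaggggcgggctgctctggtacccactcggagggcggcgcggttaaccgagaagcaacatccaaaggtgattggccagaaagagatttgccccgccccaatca
Of 25 members with a promoter, 7 held these letters (28%), against 2.57% of all promoters. Beside the 3 shown, Trib3, Nars1 and Nupr1 also held them. Of the 6 members that fell, all with a promoter, only Gadd45g held them.

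Amino acid supply is a known target of Atf4. Of 22 amino acid transporters 2 fell (9.09%, against 0.222% of all genes). Below 0 lay 14, against 6481 of all 14871 genes, and the median was -0.089. Slc7a1, a cationic amino acid transporter gene, lay at -0.41, -0.50, -0.49 and -0.50 and fell by 0.47 ± 0.035, although its 2 spots lay at -0.96 and 0.011. Slc38a2, a neutral amino acid transporter gene, fell by 0.30 ± 0.029 (adjusted p = 0.0393). Slc7a3 had -0.92 ± 0.18 and did not pass (adjusted p = 0.0741). Of 20 enzymes of serine, asparagine and one-carbon metabolism 2 fell (10%), Asns and Mthfd2. Mthfd2, of the mitochondrial folate cycle, lay at -0.68, -0.66, -0.49 and -0.54 and fell by 0.59 ± 0.0087 (adjusted p = 0.0281). Psph and Shmt2 had -0.37 and -0.38 and did not pass.

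No aminoacyl-tRNA synthetase and no endoplasmic reticulum chaperone passed, but most lay below 0. Of 18 synthetases 16 did, with a median of -0.14, and of 20 chaperones 18 did, with a median of -0.15. Of all 14871 genes 6481 did. In each list 9 members had an unadjusted p under 0.05, and all 9 were lower, against 5.42% of all genes. Hspa5, which encodes the main endoplasmic reticulum chaperone BiP, lay at -1.29, -0.98, -0.91 and -0.55 with a mean of -0.93 ± 0.24 (adjusted p = 0.0508). Creld2 and Dnajb9, also induced when proteins misfold, had -0.55 and -0.22. Eprs1 had -0.59 ± 0.28 and Iars1 -0.21 ± 0.028. On array 4 the median of the synthetases was 0.028, above 0, so their direction rests on arrays 1 to 3.

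Cholesterol synthesis was lower. Cells make cholesterol from acetyl-CoA by a chain of enzymes whose genes are activated together by the factor SREBP-2 when membrane sterol is low, and in brain most cholesterol is made locally. Of 17 measured enzymes 5 fell (29.4%, against 0.222% of all genes) and 0 rose. Below 0 lay 16, against 6481 of all 14871 genes, and 12 did so on all 4 arrays, as did 7.56% of all genes. The median was -0.32, with -0.44, -0.36, -0.29 and -0.20 on arrays 1 to 4. The enzymes that fell span the chain. Mvd, which makes isopentenyl diphosphate, fell by 0.62 ± 0.19. Idi1, the isomerase of the next step, lay at -0.81, -0.86, -0.76 and -0.67 and fell by 0.78 ± 0.014, or 1.71-fold (adjusted p = 0.0143). Fdps, the farnesyl diphosphate synthase gene, fell by 0.74 ± 0.15 (adjusted p = 0.0281). Sqle, the squalene epoxidase gene, lay at -0.54, -0.58, -0.71 and -0.63 and fell by 0.61 ± 0.015 (adjusted p = 0.0246). Msmo1, which acts late in the chain, lay at -1.01, -0.96, -0.82 and -0.52 and fell by 0.83 ± 0.12, or 1.78-fold (adjusted p = 0.0143). All 4 arrays of Idi1 lie close together, whereas array 4 is the least low for Msmo1. Fdft1, Dhcr7, Sc5d and Acat2 had -0.52, -0.35, -0.32 and -0.24 and did not pass, with adjusted p from 0.0727 to 0.0937. The 2 Acat2 spots lay at -0.623 and 0.145.

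Genes that sense or move sterol did not lean one way, with 12 of 21 below 0 and a median of -0.023. Insig1, a feedback gene that SREBP factors also activate, lay at -0.96, -0.76, -0.71 and -0.46 and fell by 0.72 ± 0.16 (adjusted p = 0.0316). Abcg1, a sterol exporter gene activated by oxysterols, lay at 0.43, 0.48, 0.30 and 0.51 and rose by 0.43 ± 0.094 (adjusted p = 0.0325). Abca1, the related exporter gene, had 0.35 ± 0.15 and did not pass. Srebf1 had -0.28 and Stard4 -0.23, and neither passed. Of 22 genes of fatty acid synthesis 0 passed, with 7 lower and 0 higher at an unadjusted p under 0.05, and Elovl6, Fads2 and Acly had -0.36, -0.30 and -0.28. The sterol regulatory element, searched by its consensus on both strands, was in 0 of 14 cholesterol synthesis promoters and in 0.114% of all promoters. This says only that these letters are not in these windows.

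**Figure D3:**
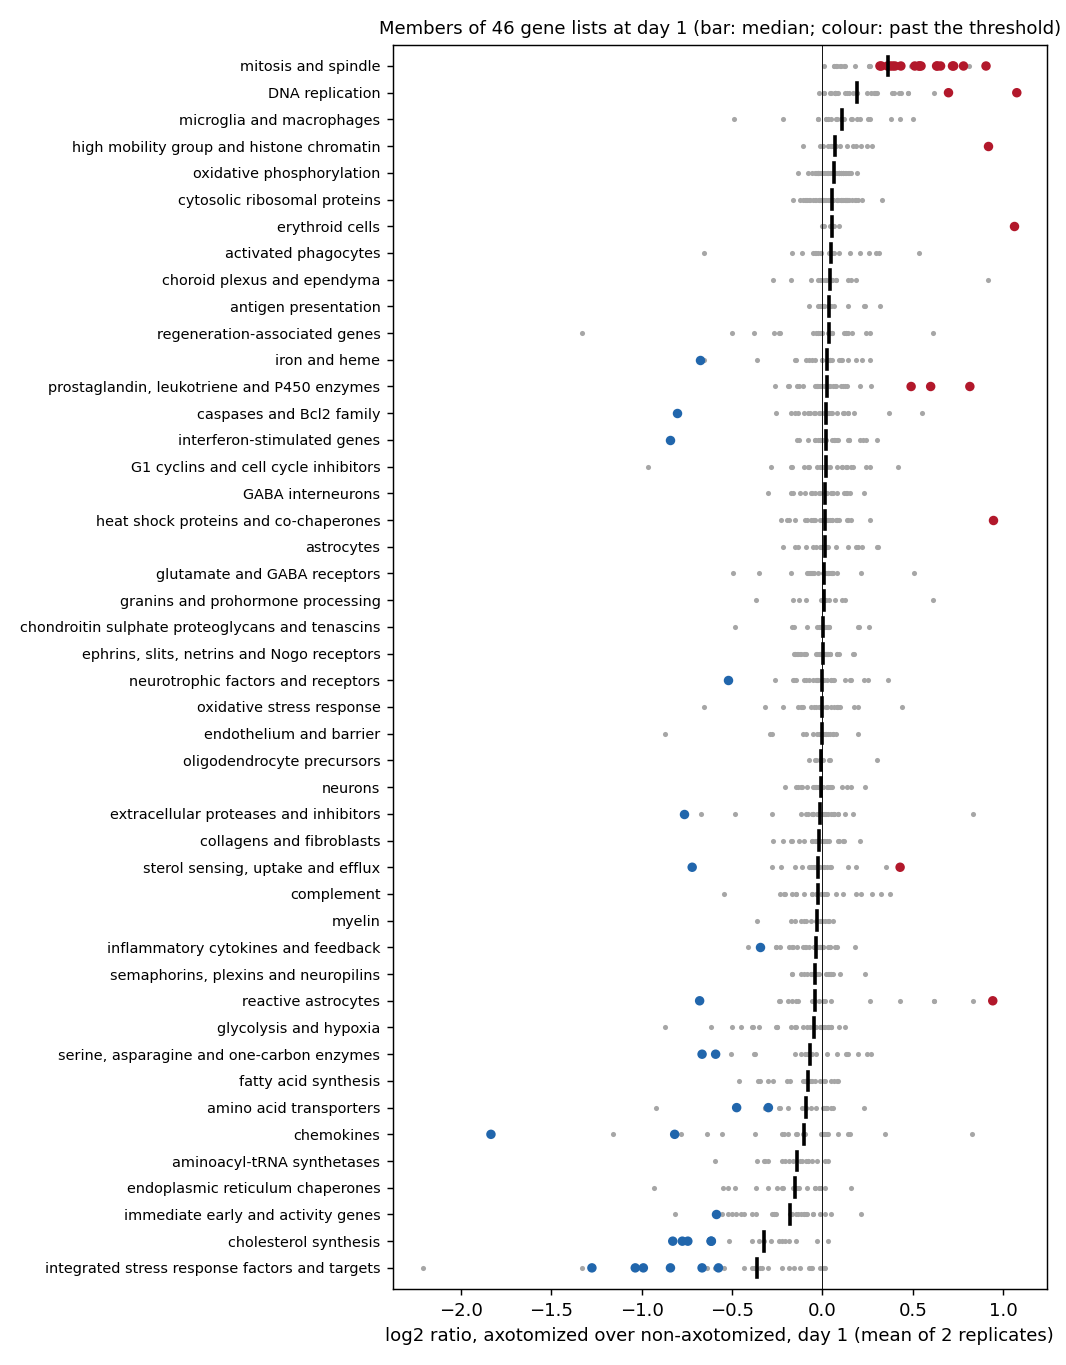
Each point is 1 member of 1 of 46 gene lists at its mean log2 ratio on day 1, black bars mark list medians, and red and blue points mark members that rose or fell. The lists are ordered by median, from mitosis and spindle at 0.36 to the integrated stress response at -0.36, and most other medians lie near 0.

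Among 27 chemokines 2 fell (7.41%, against 0.222% of all genes). Below 0 lay 17, against 6481 of all 14871 genes, and the median was -0.10. Chemokines draw leukocytes and glia to injured tissue. Cxcl1, a neutrophil attractant, lay at -1.84, -2.20, -1.63 and -1.66 and fell by 1.83 ± 0.14, or 3.57-fold (adjusted p = 0.0316). It had the largest decrease among the genes that passed. Ccl7, a monocyte attractant, lay at -0.78, -1.30, -0.54 and -0.66 and fell by 0.82 ± 0.22 (adjusted p = 0.0451). Ccl20 lay at -1.20, -1.28, -0.95 and -1.21 (adjusted p = 0.0544) and Ccl12 at -1.42, -0.67, -0.64 and -0.41 (adjusted p = 0.0654), and neither passed. Ccl2, named after its values were seen, had -0.55 ± 0.25 (adjusted p = 0.229), with its 3 spots between -1.74 and 0.062. Not every chemokine was low: Ccl6, expressed by myeloid cells, lay at 1.31, 0.81, 0.93 and 0.26 and Cxcl13 at 0.35, 0.55, 0.22 and 0.27, and neither passed.

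The promoters of both genes that fell are shown because each holds a kappa B site, the element bound by NF-kappa B, searched by its consensus on both strands and set in capitals. In Cxcl1 the site reads on both strands, shifted by 1 base.
Cxcl1 chr14:17479322-17479571, minus strand: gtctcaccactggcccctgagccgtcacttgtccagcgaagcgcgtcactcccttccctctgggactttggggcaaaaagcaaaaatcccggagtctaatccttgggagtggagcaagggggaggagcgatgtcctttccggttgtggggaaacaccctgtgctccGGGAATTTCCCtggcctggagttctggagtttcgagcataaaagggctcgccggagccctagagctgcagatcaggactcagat
Ccl7 chr10:67513845-67514094, plus strand: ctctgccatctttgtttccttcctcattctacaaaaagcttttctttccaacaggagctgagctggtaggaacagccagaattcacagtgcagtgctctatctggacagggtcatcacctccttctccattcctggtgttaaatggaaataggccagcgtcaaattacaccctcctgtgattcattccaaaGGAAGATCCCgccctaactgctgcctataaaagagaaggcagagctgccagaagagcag
Such letters were found in 5 of 21 chemokine promoters (23.8%), those of Cxcl1, Ccl7, Cxcl6, Cxcl10 and Cxcl11, against 1.18% of all promoters.

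Of 33 inflammatory cytokine and feedback genes 1 fell (3.03%, against 0.222% of all genes). Icam1, an adhesion molecule gene that leukocytes use to leave vessels, lay at -0.38, -0.44, -0.35 and -0.21 and fell by 0.34 ± 0.025 (adjusted p = 0.0292). Il1b had -0.41 ± 0.19, and Nfkb1, which encodes an NF-kappa B subunit, -0.26 ± 0.054 (adjusted p = 0.0654), and neither passed. The 3 Il1b spots ran from -0.79 to 0.039. Among 29 immediate early and activity genes 26 lay below 0, against 6481 of all 14871 genes, with a median of -0.18, and 1 fell (3.45%). Ier3 lay at -0.48, -0.55, -0.56 and -0.77 and fell by 0.59 ± 0.099 (adjusted p = 0.0179). Klf4 lay at -0.65, -0.77, -0.79 and -1.04 (adjusted p = 0.0652) and Klf6 at -0.51, -0.66, -0.39 and -0.44 (adjusted p = 0.0552). Junb lay at -0.74, -0.88, -0.17 and 0.23 (adjusted p = 0.0718), with array 4 above 0. Jun, named after its values were seen, had -0.27 ± 0.055 (adjusted p = 0.211). Casp4, an inflammatory caspase gene, lay at -0.76, -0.97, -0.74 and -0.73 and fell by 0.80 ± 0.071. Casp1, of the same family, had 0.37 ± 0.15 and did not pass (adjusted p = 0.0877). Ifi27l2b fell by 0.84 ± 0.039, but its 2 spots lay at -1.66 and -0.025, so 1 spot carries it. Tfpi2, a protease inhibitor gene, lay at -0.89, -0.56, -0.79 and -0.82 and fell by 0.76 ± 0.11.

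Markers of reactive astrocytes did not move together. Of 21 genes 12 lay below 0, 1 rose and 1 fell (9.52% passed, against 0.592% of all genes). Cryab, a small heat shock protein gene, lay at 1.14, 0.995, 0.92 and 0.72 and rose by 0.94 ± 0.12, or 1.92-fold (adjusted p = 0.0246). Lcn2, the lipocalin gene of reactive astrocytes, lay at -0.64, -1.12, -0.50 and -0.45 and fell by 0.68 ± 0.15 (adjusted p = 0.0281). Timp1, a metalloprotease inhibitor gene, had 0.83 ± 0.34 (adjusted p = 0.0521), Vim 0.62 ± 0.11 (adjusted p = 0.0853) and Synm 0.43 ± 0.018 (adjusted p = 0.0749), and these 3 did not pass. Gfap, the astrocyte intermediate filament gene, lay at -0.62 and -0.57 on the Cy5 arrays and at -0.032 and 0.69 on the Cy3 arrays, so no direction can be given for it.

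Lipid mediator enzymes held 3 increases among 28 genes (10.7%, against 0.37% of all genes), with a median of 0.025 for the list. Ptgs1, the constitutive cyclooxygenase gene, which in brain is found in microglia, lay at 0.61, 0.54, 0.54 and 0.28 and rose by 0.49 ± 0.12 (adjusted p = 0.0392). Hpgds, which makes prostaglandin D2, lay at 1.09, 1.09, 0.77 and 0.31 and rose by 0.82 ± 0.16 (adjusted p = 0.0451). Cyp4f1, a leukotriene and fatty acid hydroxylase gene, lay at 0.72, 0.68, 0.58 and 0.41 and rose by 0.60 ± 0.073 (adjusted p = 0.0292). Ptges, the prostaglandin E synthase gene, had -0.26 ± 0.064 and did not pass (adjusted p = 0.0636).

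Beside these increases, 22 of 26 microglia and macrophage genes lay above 0, as did 56.4% of all genes, with a median of 0.11, and 0 passed in limma's test, while 8 were higher and 2 lower at an unadjusted p under 0.05. The median was -0.016, 0.044, 0.10 and 0.19 on arrays 1 to 4. Trem2, a microglial receptor gene, lay at 0.55, 0.48, 0.38 and 0.32 (adjusted p = 0.0679), P2ry12 at 0.26, 0.83, 0.21 and 0.71 (adjusted p = 0.305) and Aif1 at 0.54, 0.34, 0.55 and 0.080 (adjusted p = 0.297). Fcgr2b lay at -0.49 ± 0.0040 (adjusted p = 0.102). The part of microglial number in the values of Ptgs1, Hpgds and the mitotic genes was not tested. For markers of other cell types the median was -0.014 over 7 astrocyte markers, -0.046 over 5 neuron markers, -0.081 over 4 oligodendrocyte markers and 0.031 over 3 endothelial markers, and 0 of these markers passed. Ttr, the transthyretin gene of choroid plexus, lay at 0.037 and -0.079 in replicate 1 and at 2.29 and 1.42 in replicate 2, while Folr1, Kl and Foxj1, of choroid plexus and ependyma, had 0.042, 0.019 and 0.16.

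Of 8 measured erythroid genes 1 rose (12.5%, against 0.37% of all genes). All 8 lay above 0, but only 1 did so on all 4 arrays, and the median was 0.051. Hbb-b1, a beta globin gene, lay at 1.14, 1.68, 0.43 and 1.00 and rose by 1.06 ± 0.39 (adjusted p = 0.0399). The other beta globin entry, Hbb, had 0.0033 and Alas2, of red cell heme synthesis, 0.045. The globin genes are close copies, so which of them the probes measured is uncertain.

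Lists of neurons, axon guidance and regeneration held no call, while 0.592% of all 14871 genes passed. At that share, lists of this size can be expected to hold few calls or none. In 26 neuron genes, 31 glutamate and GABA receptor genes, 25 semaphorin, plexin and neuropilin genes, 36 ephrin, slit, netrin and Nogo receptor genes and 28 regeneration-associated genes 0 passed, with medians between -0.039 and 0.034. In 28 genes of neurotrophic factors and receptors 1 fell (3.57%, against 0.222% of all genes). Gfra2, the neurturin co-receptor gene, lay at -0.51, -0.56, -0.44 and -0.58 and fell by 0.52 ± 0.068 (adjusted p = 0.0171). In 33 glycolysis and hypoxia genes 0 passed and 23 lay below 0, against 6481 of all 14871 genes. Slc2a1, the main glucose transporter gene of the blood-brain barrier, had -0.87 ± 0.15 (adjusted p = 0.0921), and Ankrd37 and Egln3, both induced by hypoxia, had -0.45 and -0.38.

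Outside the lists 28 genes rose and 9 fell. Several of those that rose encode cell division proteins: the kinesins Kif15, Kifc1 and Kif20b rose by 0.52 ± 0.12, 0.47 ± 0.014 and 0.41 ± 0.013, Gtse1 by 0.49 ± 0.071, the centromere protein gene Cenpt by 0.39 ± 0.090, and the replication and repair genes Timeless, Exo1 and Pold1 by 0.47 ± 0.073, 0.39 ± 0.074 and 0.37 ± 0.027. Dnajc9, a histone co-chaperone gene, rose by 0.40 ± 0.010. Siglec5, a sialic acid-binding receptor gene of myeloid cells, lay at 0.60, 0.55, 0.63 and 0.54 and rose by 0.58 ± 0.048 (adjusted p = 0.0246). It had the largest increase outside the lists, followed by Ccdc34 at 0.55 ± 0.071. Slc2a5, a fructose transporter gene that marks microglia in brain, lay at 0.46, 0.53, 0.29 and 0.43 and rose by 0.42 ± 0.074 (adjusted p = 0.0292). Angpt1, an angiopoietin gene, rose by 0.45 ± 0.092, Fam72a by 0.45 ± 0.12, Nat8f5 by 0.43 ± 0.063, Arhgef19 by 0.43 ± 0.12 and Impa2 by 0.40 ± 0.028. Acss1, Cracr2b and Gpr137c rose by 0.39, 0.39 and 0.40, and in Gpr137c the arrays of replicate 2 lay at 0.020 and 0.85, so its mean rests on a wide dye pair. The 4 Acss1 spots ran from 0.080 to 0.81.

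Among the 9 that fell, Eif2s2, which encodes a subunit of eIF2, lay at -0.30, -0.41, -0.42 and -0.33 and fell by 0.36 ± 0.0093 (adjusted p = 0.0273). Its 3 spots lay between -0.39 and -0.35. Ccn1, a matricellular protein gene, fell by 0.53 ± 0.048, with spots at -0.95 and -0.11, and Fermt2, the kindlin-2 gene of integrin adhesion, fell by 0.42 ± 0.023. Pvr, the poliovirus receptor gene, fell by 0.55 ± 0.098, Bhlhe40, a transcriptional repressor gene, by 0.53 ± 0.10, Ppan, of ribosome assembly, by 0.45 ± 0.092 and Igf2bp2, an RNA-binding protein gene, by 0.43 ± 0.033. Fam162a and Rflnb fell by 0.40 ± 0.054 and 0.37 ± 0.074.

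The response of day 1 was set beside days 3 and 7, whose arrays each carry their own non-axotomized RNA per the labels. Of the 55 genes that rose at day 1, 54 lay above 0 at day 3, with a median of 0.15, and 24 at day 7, with a median of -0.0045. Of all 14871 genes, 8004 lay above 0 at day 3 and 7766 at day 7. Of the 33 that fell, 26 lay below 0 at day 3, with a median of -0.26, and 6 at day 7, with a median of 0.11. At day 3, when 153 of 14871 genes passed (1.03%), 6 of the 55 also rose (10.9% of 55, 6.82% of the 88 that rose at day 3) and 12 of the 33 also fell (36.4% of 33, 18.5% of the 65 that fell at day 3). These 12 include Ddit3, Atf4, Gdf15, Asns and Casp4.

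Differences of list medians between days were not tested, and the values are given side by side. The mitosis and spindle median went from 0.36 at day 1 to 0.094 at day 3 and -0.0045 at day 7. The integrated stress response median was -0.36, -0.32 and 0.086. At day 3, 10 of its 28 members fell, as did 0.437% of all genes. The cholesterol synthesis median was -0.32, -0.030 and 0.16, and all 17 enzymes lay above 0 at day 7, when 7766 of all 14871 genes did. The chemokine median was -0.10, 0.0012 and -0.00086: Cxcl1 had 0.044 at day 3 and 0.11 at day 7.

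Gene by gene, limma's test of day 1 against day 3 called 0 of 14871 genes (0%), with 1316 at an unadjusted p under 0.05 and a smallest adjusted p of 0.0655. With quantile normalization it called 91. Cryab had 0.94 at day 1 and -0.55 at day 3, and its difference of 1.49 had that smallest adjusted p (0.0655), shared with Igf2bp2, Ccn1, Msmo1 and others. Day 1 differed from day 7 in 18 genes (0.121%), 9 with the higher ratio at day 1 and 9 with the lower. Of these 18, 17 also passed the test of day 1 against 0. Both tests use the same day 1 values and the same estimate of spread, which favours this overlap. Idi1 had -0.78 at day 1 and 0.45 at day 7, a difference of -1.23 (adjusted p = 0.0141), and Msmo1 and Sqle differed by -1.17 and -0.94. Ddit3 had -1.28 and 0.24, a difference of -1.51 (adjusted p = 0.0409), and Atf4 differed by -1.40. Hmgb2, Ckap2, Top2a, Nuf2 and Kifc1 were higher at day 1 by 1.00, 0.76, 0.57, 0.55 and 0.46. This count of 18 fell to 0 when either replicate of day 3 was left out. Leaving out replicate 1 or 2 of day 1 gave 1 or 2 genes, and leaving out replicate 1 or 2 of day 7 gave 8 or 22.

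**Figure D4:**
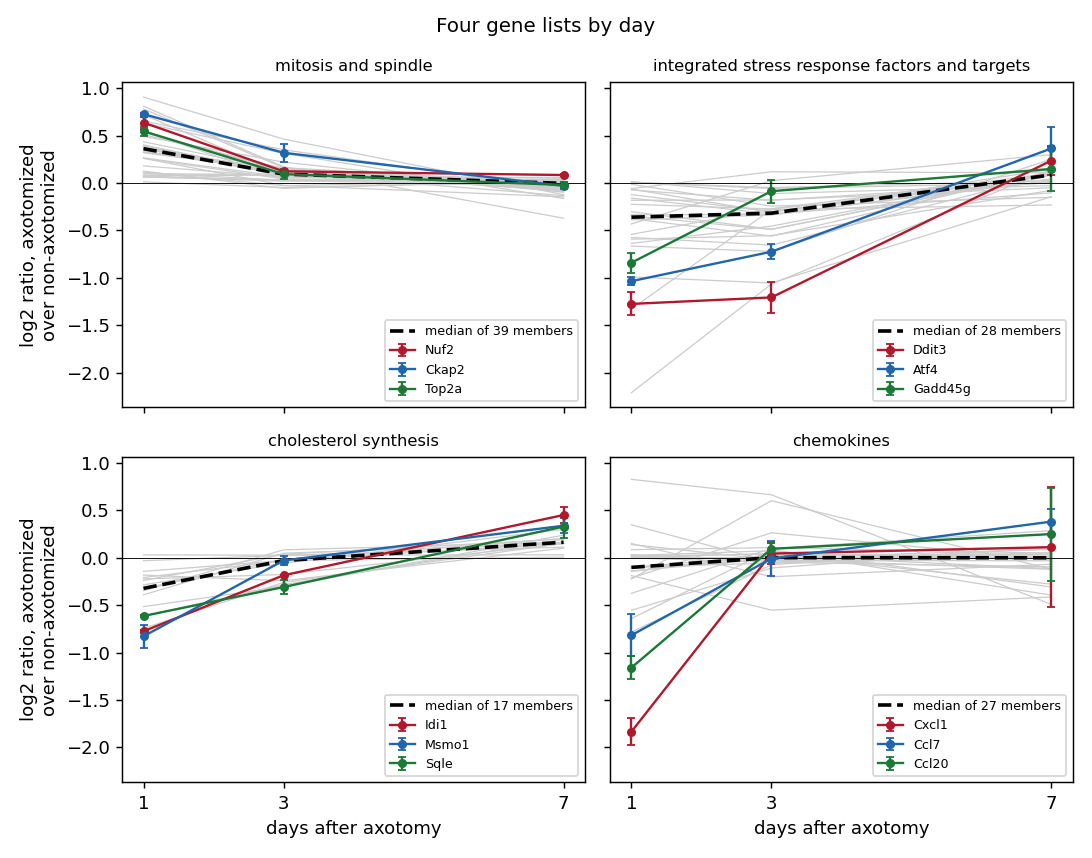
Log2 ratios of 4 gene lists at 1, 3 and 7 days after axotomy are drawn as grey lines for single members, a dashed line for the list median, and coloured points with bars of 1 SD (n = 2) for 3 named members of each list. The median of the mitotic genes runs from 0.36 to -0.0045, that of the stress response genes is still -0.32 at day 3, and that of cholesterol synthesis is 0.16 at day 7.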

How the data were processed

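RNA of axotomized and non-axotomized co-cultures was measured on 2-colour whole-genome rat oligonucleotide arrays. The deposited table holds the authors' log2 ratios per spot. The submitters' processing notes name limma, which the authors used before they deposited the log2 values. Its version, the background correction, the normalization and the log base are not given in the sources used here, and base 2 follows limma's convention. Column medians at day 1 ran from -0.016 to 0.024. Of 755 spots whose dye-dependent part exceeded 1, 745 had no listed gene, and their medians had opposite signs in the 2 dye orientations (-4.64 and 3.66), so all columns were read in 1 RNA direction. No column was left out (0).

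Of 44290 spots, 23535 have 1 gene symbol, 48 several and 20707 none. Spots with 1 symbol were averaged to 14871 genes, 5658 of them with 2 or more spots. Without intensities, no filter on dim spots was possible. Each replicate is the mean of its 2 arrays. All 6 replicates (days 1, 3 and 7) entered 1 model in limma (3.58.1; R 4.3.3), whose coefficients for the days were tested against 0 and against each other (two-sided, Benjamini-Hochberg, adjusted p under 0.05, 3 residual and 2.72 prior degrees of freedom). The small number of arrays limits the precision. On simulated data for day 1 with 14871 genes, 69% of 100 genes moved by 0.5 and 96% of 100 moved by 1 were recovered, with 5 false among 170 calls. The simulated noise was independent between genes and replicates and held no dye effect. Both features differ from the arrays, so these rates need not hold for them.

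The arrays, the 46 gene lists (1151 of 1251 entries measured) and the tests were chosen with earlier results of these data known. Named are all list members past the threshold, up to 4 further members per list by p, the 20 largest changes per direction outside the lists with 1 sign on all 4 arrays, the 10 largest per direction for each difference between days, and markers of cell types. Trib3, Chac1, Birc5, Tyms, Ccl2 and Jun were added after their values were seen. Promoters (12254 genes, RefSeq, GRCr8) were searched on both strands over the 250 bases before the start, and the promoters shown are up to 3 per motif with the smallest p in its list, apart from Kif20a, which was left out. Matplotlib 3.10.9 under Python 3.11.15 drew the plots. Replicate numbers were not taken to pair samples across days. Alternatives left out single replicates, days, dyes or spots, or changed the normalization or the variance model.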

Additional observations from a re-analysis of the deposited data

Results flagged for a closer look

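In 18 genes the ratio at day 1 differed from that at day 7 by limma's test of the difference itself. Higher at day 1 were Hmgb2 by 0.9997, Ckap2 by 0.758, Slc2a5 by 0.6996, Nat8f5 by 0.6322, Ctsd by 0.6214, Cracr2b by 0.6095, Top2a by 0.5672, Nuf2 by 0.5527 and Kifc1 by 0.4645, with adjusted p from 0.0409 to 0.0486. Lower at day 1 were Eif2s2 (-0.568), Ccn1 (-0.609), Fermt2 (-0.6293), Gfra2 (-0.8265), Sqle (-0.9429), Msmo1 (-1.166), Idi1 (-1.226), Atf4 (-1.40) and Ddit3 (-1.513), with adjusted p from 0.0141 to 0.0486. Ctsd, a lysosomal protease gene, is the one that did not pass the test of day 1 against 0. Its day 1 arrays lay at 0.072, -0.25, 0.50 and 0.86, and its replicates at day 7 at -0.30 and -0.35.

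With each spot tested alone, 2 passed at day 1, both lower. One of them has no listed gene and enters no gene value. It lay at -0.909, -0.996, -0.678 and -0.647 on arrays 1 to 4, with a mean of -0.808 (adjusted p = 0.0338).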

How the results depend on the processing

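The number of genes past the threshold depended on the setting. The count at day 1 was 13 with only that day in the fit, 654 on the Cy5 arrays alone, 56 on the Cy3 arrays alone, 720 with the 12 arrays in a random block, 594 when a dye term was added to that, 32 with genes of 2 or more spots, 2 with each spot alone, and 218 without array 4 of day 1, a setting chosen after seeing the data. Leaving out a replicate in turn gave 0 to 36 genes, with 0 to 27 among the 88. Quantile normalization, centring and scaling, the median of the spots and a robust fit gave 79 to 112, of which quantile normalization gave 112 with 53 among the 88. The difference from day 3, with 0 genes, gave 4 with only the days compared, 2 on the Cy5 arrays, 389 and 290 in the random block without and with a dye term, 91 with quantile normalization, 6 with genes of 2 or more spots, 3 without array 4, and 0 to 4 without a replicate. The difference from day 7, with 18 genes, gave 0 with only the days compared, 64 and 2 on the Cy5 and the Cy3 arrays, 868 and 726 in the random block, 92 with quantile normalization, 11 with a robust fit, 127 without array 4, and 0 to 22 without a replicate. In the random block fits each technical array entered singly. The correlation within a replicate was estimated at -0.175, and at 0.226 with the dye term. The larger counts of these fits do not rest on more biological replicates. Causes were not tested. The replicate block gave 53 genes at day 1 (27 higher, 26 lower, 42 of them among the 88), 0 against day 3 and 11 against day 7. Each gene's deviation of replicate 1 from its day mean was correlated between days. This gave 0.257 for days 1 and 3, -0.068 for days 1 and 7, and 0.014 for days 3 and 7. The main fit did not take the replicate numbers as pairs, and these values do not settle whether they are.

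The 18 mitosis and spindle genes past the threshold became 8 with the replicate block, 1 with day 1 alone, 9 on the Cy3 arrays and 21 without array 4. The counts of all 8 lists followed through the alternatives were 0 without any 1 replicate of day 1 or day 3.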
